A study of Arabidopsis thaliana with 16 samples.

Results

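The MCTP proteins (multiple C2 domains and transmembrane region proteins) are a plant family with several C2 domains, which bind lipids and often calcium, and a membrane anchor at the C-terminus. Several of them sit in plasmodesmata, the membrane-lined channels between plant cells, where MCTP3 and MCTP4 are known to hold the endoplasmic reticulum against the plasma membrane. QKY (QUIRKY) is a further family member found at plasmodesmata. The genes described here are the 9 members MCTP2, MCTP5, MCTP6, MCTP7, MCTP8, MCTP9, MCTP14, QKY and MCTP16, chosen by gene identifier out of 33560 genes in the matrix. The family was taken as 16 genes, the others being the mutated MCTP3 and MCTP4 and 5 further genes.

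Polyadenylated RNA was sequenced from Arabidopsis roots (Col-0 background, seedlings aged 5 days), in 16 libraries of 4 genotypes with 4 libraries each. The genotypes are the plants that carry both mctp3-2 and mctp4-1 (double), the mctp4-1 mutant (Salk_089046C), the mctp3-2 mutant (GABI_285E06) and wild type (WT). Each mutant allele comes from 1 insertion line, and the labels give the same growth conditions for all groups. The comparisons ask whether the other family members change where MCTP3, MCTP4 or both are mutated. Values are FPKM, fragments scaled to transcript length and to library size, so levels of different genes can be set beside each other per length. The number of reads behind a value is unknown.

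At the mutated loci, MCTP4 averaged 3.08 ± 0.166 FPKM in double, 4.33 ± 1.29 in mctp4-1, 28.6 ± 1.50 in mctp3-2 and 26.3 ± 3.42 in WT (SD, n = 4 each). MCTP3 averaged 13.8 ± 0.847 FPKM in double, 6.68 ± 1.102 in mctp4-1, 13.8 ± 1.78 in mctp3-2 and 6.39 ± 0.236 in WT. Its transcript was thus higher, not lower, in the libraries labelled mctp3-2 and double, and results for these groups are those of the libraries labelled so. FPKM are per gene and do not show whether an intact MCTP3 protein could be made. Per library FPKM summed to 887430 to 1016220, and 18556 to 18786 genes reached 1 FPKM. All 7 root markers, such as CASP1 of the endodermis, were above 1 FPKM in every library. Green tissue markers summed to 67 to 284 FPKM in double, 87.5 to 178 in mctp4-1, 87.7 to 150 in mctp3-2 and 117 to 192 in WT. Over all libraries RBCS1A ran from 21.3 to 133 FPKM, PSBO1 from 25.0 to 74.4, RCA from 12.3 to 39.6 and LHCA1 from 8.29 to 30.2. LHCB1.1 and LHCB1.2 did not exceed 4.14 and 3.31 FPKM, with LHCB1.2 at 0 in 1 library. The labels do not say whether replicates are separate cultures, so a p-value here sets differences against library-to-library spread alone, and that spread may be technical.

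By sequence, MCTP5 was the member nearest to the mutated genes. Translated from the TAIR10.1 reference and aligned, MCTP3 and MCTP4 were 93.1% identical to each other. MCTP5 was 82.0% identical to MCTP3 and 80.6% to MCTP4, and at 769 residues it has about the length of MCTP3 (773) and MCTP4 (776). The other 8 members are longer, 972 to 1081 residues. MCTP7 was 69.0% identical to MCTP3 over aligned residues, MCTP6 67.4%, MCTP2 66.8%, MCTP9 60.6%, MCTP8 59.8%, QKY 55.2%, MCTP14 53.1% and MCTP16 48.9%. Identity between any 2 of the 9 members ran from 40.3 to 68.4%. MCTP2 was nearest to FTIP1 (71.1%), a family gene outside the 9 that is known for the transport of the flowering signal FT.

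**Figure D1:**
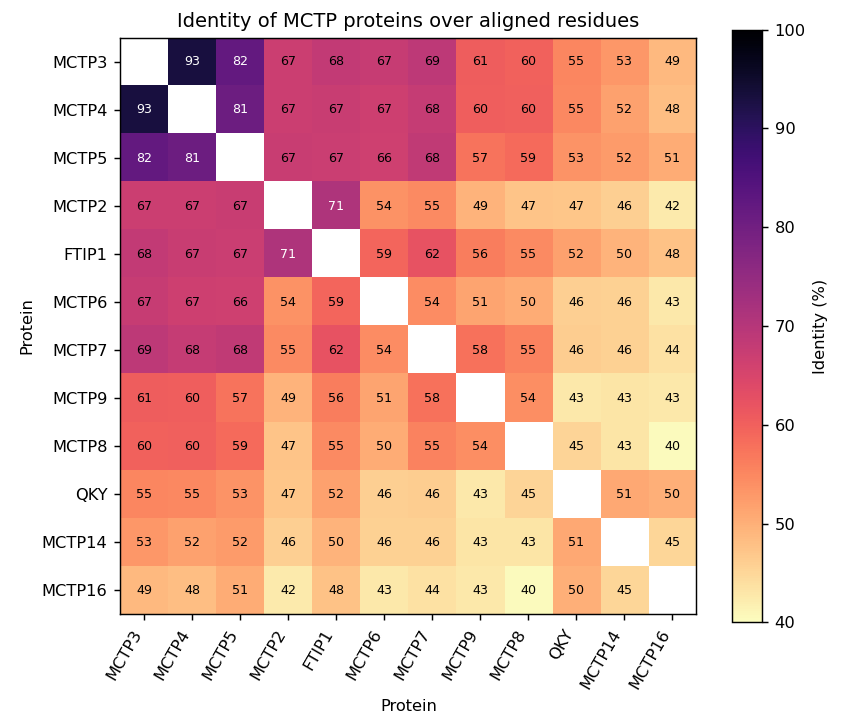
Identity in percent between 12 MCTP proteins over the residues aligned for each pair, darker where higher. MCTP3 and MCTP4 stand at 93.1%, MCTP5 at 82.0 and 80.6% to them, and MCTP16 is the member least like MCTP3 at 48.9%.

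The coding sequences of one conserved stretch are shown because they bear on whether reads of MCTP3 or MCTP4 could be counted for another member. It is the gap-free window of 20 codons where the residues of the 11 proteins equal those of MCTP4 most often, read 5′ to 3′ on the coding strand of TAIR10.1. Capitals mark bases that differ from MCTP4.
MCTP4: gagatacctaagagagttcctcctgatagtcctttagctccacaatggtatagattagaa
MCTP3: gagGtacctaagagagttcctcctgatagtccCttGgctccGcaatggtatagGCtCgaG
MCTP5: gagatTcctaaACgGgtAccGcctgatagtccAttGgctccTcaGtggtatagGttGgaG
MCTP2: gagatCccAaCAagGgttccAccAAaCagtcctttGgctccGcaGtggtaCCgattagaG
MCTP6: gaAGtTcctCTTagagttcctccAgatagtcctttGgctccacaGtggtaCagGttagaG
MCTP7: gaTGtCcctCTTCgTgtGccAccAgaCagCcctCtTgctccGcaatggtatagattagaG
MCTP8: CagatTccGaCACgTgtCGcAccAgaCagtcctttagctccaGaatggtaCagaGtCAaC
MCTP9: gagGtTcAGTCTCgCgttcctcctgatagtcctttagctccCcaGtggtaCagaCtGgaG
MCTP14: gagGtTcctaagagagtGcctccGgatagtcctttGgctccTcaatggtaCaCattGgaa
QKY: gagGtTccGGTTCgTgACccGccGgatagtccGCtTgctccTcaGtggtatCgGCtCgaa
MCTP16: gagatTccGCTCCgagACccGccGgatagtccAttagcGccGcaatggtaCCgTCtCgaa
In MCTP4 the window lies at chr1:19124254-19124313 on the minus strand and in MCTP5 at chr5:4103370-4103429 on the plus strand.

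In this window, chosen by residues and not by bases, the members differed from MCTP4 at 9 (MCTP14) to 21 (QKY) of 60 bases. MCTP3 differed from MCTP4 at 8. Over whole coding sequences, the longest exact stretch that any member shared with another family gene was 30 bases, between MCTP5 and MCTP4. Of 99 pairs of a member and another family gene, 0 shared a stretch of 50 bases in their transcripts. MCTP3 and MCTP4 shared up to 60 bases with each other:
MCTP3 and MCTP4: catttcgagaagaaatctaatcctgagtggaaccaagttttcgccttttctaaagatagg
MCTP5 and MCTP4: gttaaaggagagcttatgttagctgtttgg
The first lies at chr3:21433232-21433291 in MCTP3 and at chr1:19124401-19124460 in MCTP4, the second at chr5:4103448-4103477 in MCTP5 and at chr1:19124206-19124235 in MCTP4.

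Overlapping genes are a separate limit. MCTP6 (AT1G22610, chromosome 1, 7994262 to 7997588, plus strand, 1 exon) lies in full under exons of ATSAC1 on the opposite strand, a phosphoinositide phosphatase gene measured at 6.45 to 13.9 FPKM. MCTP8 (AT3G61300, chromosome 3, 22687570 to 22690619, plus strand, 1 exon) is overlapped over 98.7% of its exon length by AT3G61310 on the opposite strand, at 0.282 to 2.52 FPKM. Libraries were made with a stranded kit, but whether the counting used the strand is not given in the sources used here, so the levels of MCTP6 and MCTP8 are uncertain. Over the 16 libraries, log2 levels of MCTP6 and ATSAC1 correlated at r = 0.48 and those of MCTP8 and AT3G61310 at r = 0.05, given as a description. MCTP5 (AT5G12970, chromosome 5, 4102115 to 4105414, plus strand) and MCTP9 (AT4G00700, chromosome 4, 285876 to 289575, plus strand) overlap a neighbour by 32 and 100 bp.

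The other 5 members overlap no annotated gene. These are MCTP2 (AT5G48060, chromosome 5, 19475296 to 19479066, plus strand, 2 exons), MCTP7 (AT4G11610, chromosome 4, 7013729 to 7018089, minus strand, 4 to 5 exons), MCTP14 (AT3G03680, chromosome 3, 907384 to 910928, plus strand, 1 exon), QKY (AT1G74720, chromosome 1, 28074927 to 28078831, plus strand, 1 exon) and MCTP16 (AT5G17980, chromosome 5, 5953170 to 5956855, plus strand, 1 exon).

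All 9 members were above 1 FPKM in all 16 libraries, at low to middling levels. In WT the order by mean level was MCTP6 (13.4 FPKM), MCTP14 (12.9), MCTP9 (10.6), QKY (9.39), MCTP5 (8.93), MCTP7 (5.86), MCTP2 (2.96), MCTP16 (2.27) and MCTP8 (2.20). Of the neighbours in this order, only MCTP2 and MCTP16 had WT ranges that did not overlap. In double the order was MCTP6, MCTP14, QKY, MCTP9, MCTP5, MCTP7, MCTP2, MCTP8 and MCTP16, so QKY and MCTP9, and MCTP16 and MCTP8, stood in the other order, each pair with overlapping ranges. Among the 19239 genes that passed the filter on low values, MCTP6 stood at the 49.7th percentile of mean FPKM and MCTP16 at the 10.4th.

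**Figure D2:**
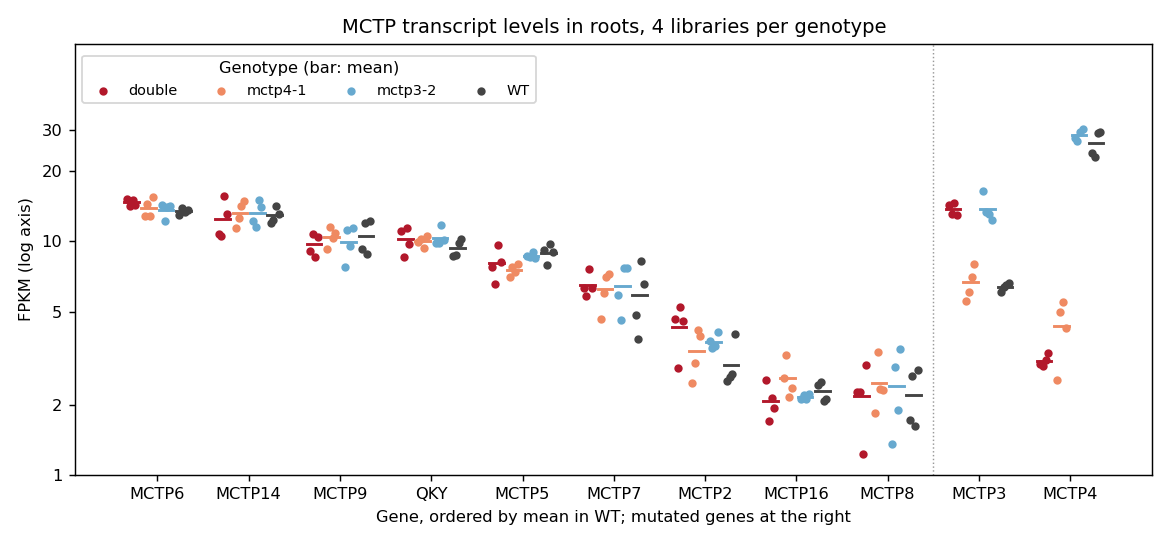
FPKM on a log axis of the 9 members and, right of the dotted line, MCTP3 and MCTP4, in 4 libraries each of double, mctp4-1, mctp3-2 and WT; bars are means. The libraries of double and WT overlap for 8 of the 9 members, MCTP6 being the exception, while MCTP4 is at 3.08 and 4.33 FPKM on average in double and mctp4-1, against 26.3 in WT.

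The summed level of the 9 members differed little between genotypes. Their FPKM summed to 69.7, 63.3, 76.4 and 71.6 in replicates 1 to 4 of double, to 62.1, 72.1, 69.7 and 75.6 in mctp4-1, to 65.8, 66.5, 74.7 and 75.5 in mctp3-2 and to 63.5, 66.5, 70.5 and 73.6 in WT. The means were 70.2 ± 5.44 FPKM in double, 69.9 ± 5.73 in mctp4-1, 70.6 ± 5.20 in mctp3-2 and 68.5 ± 4.41 in WT (SD, n = 4 each). The 4 groups overlapped throughout. The mean of double exceeded that of WT by 1.73 FPKM, less than the spread within either group, while MCTP4 differed by −23.3 FPKM. That small difference moved between −0.315 and 4.06 FPKM when single libraries were left out, the lowest without double replicate 3 and the highest without double replicate 2. It was 0.0722 FPKM without WT replicate 1, 3.41 without WT replicate 4 and 0.125 after median of ratios scaling.

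Counted with MCTP3, MCTP4 and FTIP1, the 12 family genes that passed the filter summed to 97.0 ± 7.72 FPKM in double, 89.2 ± 8.57 in mctp4-1, 122 ± 6.63 in mctp3-2 and 109 ± 9.06 in WT (SD, n = 4 each). The 9 members made up 72.5 ± 0.576% of this sum in double, 78.4 ± 1.44% in mctp4-1, 57.7 ± 1.85% in mctp3-2 and 62.7 ± 1.59% in WT. These shares differ with the levels of MCTP3 and MCTP4, since the sum of the 9 differed little. MCTP4 was the highest of the 12 in WT, with 24.1% of the sum, and MCTP6 in double, with 15.2%. The remaining 4 family genes were at or near 0: AT1G04150 did not exceed 0.737 FPKM in any library, and AT3G61720 was listed at 0 in all.

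**Figure D3:**
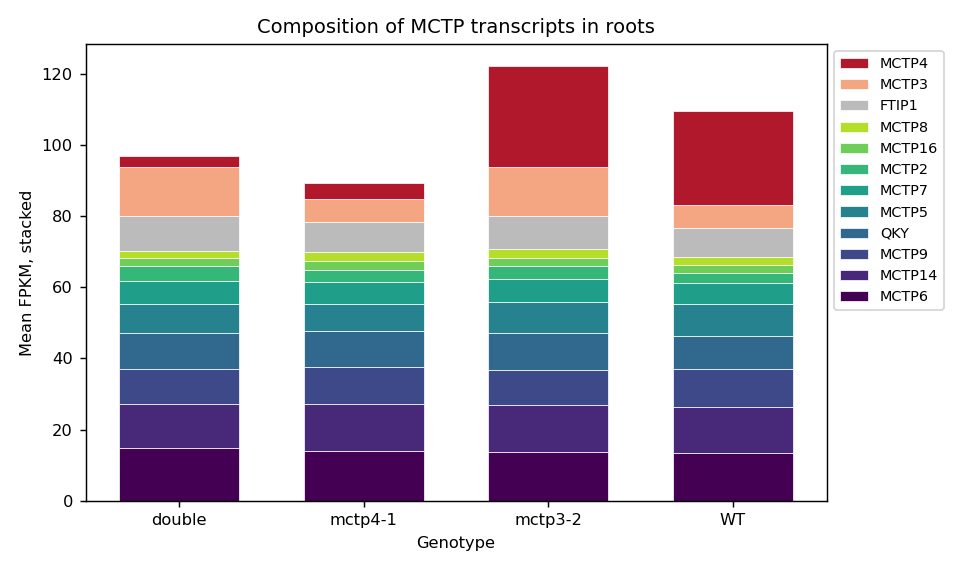
Mean FPKM of the 12 measured MCTP genes, stacked, by genotype (n = 4 libraries each). The stack of the 9 members reaches 70.2 FPKM in double, 69.9 in mctp4-1, 70.6 in mctp3-2 and 68.5 in WT, and the total height follows MCTP3 and MCTP4 at the top.

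In the libraries labelled double against WT, none of the 9 members was called. Here a gene is called at a Benjamini-Hochberg adjusted p under 0.05 over all 19239 genes tested with limma on log2(FPKM + 1). The count was 0 of 9, against a background of 30 genes called, 0.156% of those tested. With the replicate number as a block it was again 0 of 9, against 0.541% of all genes. At an unadjusted p under 0.05 it was 1 of 9, MCTP2, against 3.82% of all genes. On this scale 4 members (44.4%) lay above 0 and 5 below, against 59.9% of all genes above 0. The median log2 change of the 9 was −0.02, against 0.03 over all genes tested.

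MCTP2 had the largest value of the 9 in double. It was at 4.63, 2.86, 5.22 and 4.55 FPKM in replicates 1 to 4 of double, at 2.47, 3.004, 4.16 and 3.93 in mctp4-1, at 3.73, 3.50, 3.56 and 4.07 in mctp3-2 and at 2.52, 2.61, 2.71 and 3.99 in WT. In double 3 libraries were above every WT library, and replicate 2 lay inside the WT range. The mean was 4.31 ± 1.013 FPKM in double and 2.96 ± 0.693 in WT (SD, n = 4 each). The log2 change was 0.42 ± 0.17 SE with a 95% interval of 0.06 to 0.77, an unadjusted p of 0.0239 and an adjusted p of 1.00 by limma. With the replicate block the adjusted p was 0.303. MCTP2 was higher in double than in WT for 4 of 4 replicate numbers, by a log2 change of 0.39 in replicates 1 and 2 and of 0.45 in replicates 3 and 4. The share of all genes with such agreement was not counted, here or for counts of this kind below. The difference of 1.36 FPKM between the means is 5.83% of the size of the MCTP4 difference. Xylem markers were also higher in double. There 6 of 6 were above 0 and 2 of 6 were called, against 59.9% and 0.156% of all genes tested. The median of the 6 log2 changes was 0.47, and the markers summed to 250 to 294 FPKM in double, against 191 to 203 in WT. In the single mutants they summed to 205 to 249 FPKM in mctp4-1 and 210 to 242 in mctp3-2. Phloem markers summed to 109 to 157 FPKM in double and 93.9 to 124 in WT. Of these, 6 of 6 were above 0 and 1 was called, against the same shares of all genes. The phloem markers were uneven, with log2 changes from 0.02 for SUC2 and 0.03 for APL to 0.69 for SEOR1, the one called. Both lists were chosen with earlier results of these data known, so these shares are given as a description. The part of either list in the MCTP2 value was not tested. In bulk roots, a change in the number of cells of a type and a change of RNA per cell cannot be told apart.

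In the single mutants MCTP2 was intermediate. Its log2 change from WT was 0.15 (95% interval −0.21 to 0.50) in mctp4-1 and 0.27 (−0.09 to 0.62) in mctp3-2, neither called. MCTP2 was higher than in WT for 2 of 4 replicate numbers in mctp4-1 and for 4 of 4 in mctp3-2. The values of the 3 mutants against WT share the WT libraries. Between double and mctp4-1 the log2 difference was 0.27 (−0.08 to 0.63), and between double and mctp3-2 it was 0.15 (−0.20 to 0.51). The interaction, which asks whether the change in double departs from the sum of both single mutants' changes, was 0.01 with an interval of −0.50 to 0.51.

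MCTP5, the nearest relative of MCTP3 and MCTP4, did not lie above WT in any mutant mean. It was at 7.79, 6.59, 9.67 and 8.18 FPKM in double, at 7.002, 7.74, 7.36 and 7.97 in mctp4-1, at 8.68, 8.57, 9.02 and 8.46 in mctp3-2 and at 9.14, 7.88, 9.71 and 8.98 in WT. In mctp4-1 3 of the 4 libraries were below every WT library. The log2 change was −0.14 (95% interval −0.35 to 0.07) in double, −0.22 (−0.43 to −0.01) in mctp4-1 and −0.03 (−0.25 to 0.18) in mctp3-2. In mctp4-1 the unadjusted p was 0.0452 and the adjusted p was 1.00 by limma, and MCTP5 was lower for 4 of 4 replicate numbers. In double it was also lower for 4 of 4. The upper end of the interval in double is a 1.05-fold increase on the FPKM + 1 scale.

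MCTP6, the member with the highest level, was the only one of the 9 whose double and WT libraries did not overlap. It was at 15.2, 14.2, 15.03 and 14.4 FPKM in double and at 12.9, 13.9, 13.4 and 13.6 in WT. The gap between the groups is small, 14.2 against 13.9 FPKM at their nearest. All 4 double libraries stood above all 4 WT libraries in 1.23% of the genes tested, and below them in 0.904%, which was so for 0 of the 9 members. The log2 change was 0.12 ± 0.08 SE (95% interval −0.05 to 0.29), and MCTP6 was not called. ATSAC1, which overlaps it on the opposite strand, was at 8.84 to 11.6 FPKM in double and at 6.45 to 11.8 in WT (log2 change 0.21, −0.18 to 0.60). In mctp4-1 MCTP6 ran from 12.9 to 15.5 FPKM and in mctp3-2 from 12.2 to 14.3, both overlapping WT.

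QKY, known from its mutants to be needed for organ shape and cell patterning together with the receptor kinase SUB, was at 11.1, 8.59, 11.4 and 9.77 FPKM in double, at 9.94, 10.2, 9.35 and 10.6 in mctp4-1, at 9.79, 9.86, 11.8 and 10.08 in mctp3-2 and at 8.69, 8.76, 9.87 and 10.2 in WT. The groups overlapped. Its log2 change was 0.11 (95% interval −0.10 to 0.31) in double, 0.09 (−0.12 to 0.30) in mctp4-1 and 0.13 (−0.08 to 0.34) in mctp3-2. SUB itself was at −0.25 ± 0.17 SE in double and was not called.

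The members MCTP7, MCTP8, MCTP9, MCTP14 and MCTP16 gave log2 values from −0.10 to 0.17 in double, and each interval included 0. The value of MCTP7, 0.17 (−0.25 to 0.59), was 0.42 within replicates 1 and 2 and −0.08 within replicates 3 and 4. MCTP9 was at 9.12, 10.8, 8.55 and 10.5 FPKM in double, at 9.27, 11.5, 10.3 and 10.8 in mctp4-1, at 7.73, 11.1, 9.56 and 11.4 in mctp3-2 and at 9.29, 11.96, 8.79 and 12.2 in WT. The groups overlapped, and MCTP9 was lower in double than in WT for 4 of 4 replicate numbers, with a log2 change of −0.10 (−0.38 to 0.18). MCTP16 was at 2.53, 1.70, 2.13 and 1.93 FPKM in double, at 2.60, 3.26, 2.16 and 2.36 in mctp4-1, at 2.11, 2.20, 2.12 and 2.21 in mctp3-2 and at 2.41, 2.50, 2.07 and 2.10 in WT. It was higher in mctp4-1 than in WT for 4 of 4 numbers, with overlapping ranges and a log2 change of 0.13 (−0.13 to 0.38). Of the 9 members, MCTP8 had the widest interval in double, −0.49 to 0.46, and that of MCTP14 ran from −0.32 to 0.21.

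The upper ends of the 95% intervals, from the fit without the replicate block, say how large an increase in double that fit leaves possible. They are on the FPKM + 1 scale and without correction for the 9 members. They were 1.71-fold for MCTP2, 1.50-fold for MCTP7, 1.37-fold for MCTP8, 1.24-fold for QKY, 1.22-fold for MCTP6, 1.16-fold for MCTP14, 1.13-fold for MCTP9, 1.12-fold for MCTP16 and 1.05-fold for MCTP5. With the block the SE of the log2 change was 0.125 in place of 0.197 for MCTP7 and 0.155 in place of 0.223 for MCTP8. It was 0.0847 in place of 0.132 for MCTP9 and 0.0790 in place of 0.125 for MCTP14. It was also smaller for MCTP2, MCTP5 and QKY, and slightly larger for MCTP6 and MCTP16. Fold limits with the block are not given. For MCTP3 the measured change itself was 1.00 ± 0.11 SE on the log2 scale (adjusted p = 2.38e-04 by limma).

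**Figure D4:**
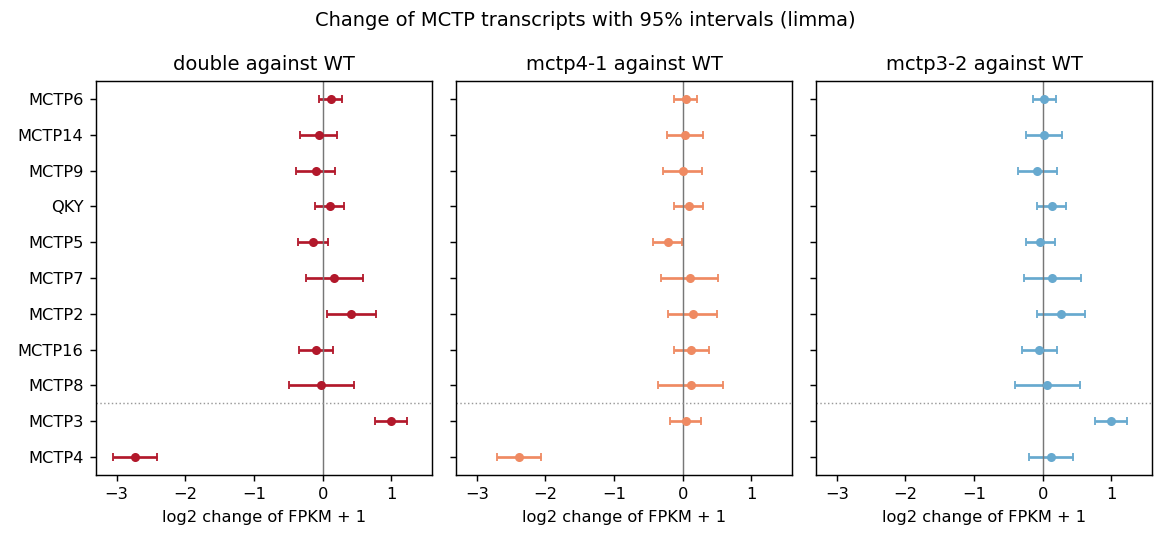
Log2 change of FPKM + 1 against WT with 95% intervals from limma, in double, mctp4-1 and mctp3-2, for the 9 members and, under the dotted line, MCTP3 and MCTP4. For the 9 members the points lie between −0.22 and 0.42, and the intervals of MCTP2 in double and MCTP5 in mctp4-1 leave out 0.

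None of the 9 members was called in any other comparison either. The count was 0 of 9 in mctp4-1 against WT, where 0.026% of all genes were called, and 0 of 9 in mctp3-2 against WT, where 0.0312% were. In mctp4-1, 7 members (77.8%) were above 0, against 60.6% of all genes tested, and the median of the 9 log2 changes was 0.09, against 0.03. At an unadjusted p under 0.05, MCTP5 alone passed there, 1 of 9 against 1.26% of all genes. In mctp3-2, 6 (66.7%) lay above 0 with a median of 0.02, against 65.5% and 0.05 over all genes. There 0 passed an unadjusted p under 0.05, against 1.85%. For double against mctp4-1 the count was 0 of 9 (0.0624% of all genes called), with MCTP16 farthest below 0 at −0.22 (−0.48 to 0.03). For double against mctp3-2 it was 0 of 9 (0.0572%) and for the interaction 0 of 9 (0.0364%). An unadjusted p under 0.05 was reached by 0 members in these 3 comparisons, against 2.6, 2.92 and 1.93% of all genes. With the replicate block the adjusted counts were again 0 of 9, against 0.026% of all genes in mctp4-1 against WT, 0.0572% in mctp3-2 against WT, 0.312% in double against mctp4-1, 0.275% in double against mctp3-2 and 0.052% in the interaction. The libraries of all 9 members overlapped in these pairs of genotypes. The share of all genes whose 4 libraries stood above the other 4 was 0.572% in mctp4-1 against WT, 1.51% in mctp3-2 against WT, 0.988% in double against mctp4-1 and 0.629% in double against mctp3-2. The share below was 0.457, 0.338, 0.941 and 0.946% in the same comparisons.

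For 5 of the 9 members the replicate number went with more of the variation than genotype did. This is no trait of the members alone: over all genes tested the median share was 43.5% for replicate number and 11.3% for genotype. The share of all genes with more variation between numbers than between genotypes was not counted. The replicate number stands for a library of the same number in each genotype, and what it marks is not stated in the labels. Of the 9 members, 5 had a larger share of the variation of their log2 levels over the 16 libraries between replicate numbers than between genotypes: MCTP7, MCTP8, MCTP9, MCTP14 and QKY. QKY had 25.6% between numbers and 17.9% between genotypes.

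MCTP14 and MCTP7 were higher in replicates 3 and 4 than in replicates 1 and 2. MCTP14 was at 10.8, 10.5, 15.6 and 13.1 FPKM in replicates 1 to 4 of double, at 11.4, 12.6, 14.2 and 14.9 in mctp4-1, at 12.2, 11.5, 14.97 and 14.1 in mctp3-2 and at 12.02, 12.3, 14.2 and 13.1 in WT. MCTP14 averaged 14.3 ± 0.879 FPKM in the 8 libraries of replicates 3 and 4, which ran from 13.1 to 15.6, and 11.7 ± 0.753 in the 8 of replicates 1 and 2, which ran from 10.5 to 12.6 (SD). MCTP7 was at 6.29, 5.83, 7.58 and 6.34 FPKM in double, at 4.64, 5.99, 7.05 and 7.25 in mctp4-1, at 5.87, 4.58, 7.68 and 7.69 in mctp3-2 and at 4.83, 3.81, 8.22 and 6.58 in WT. It averaged 7.30 ± 0.624 FPKM in replicates 3 and 4 and 5.23 ± 0.882 in replicates 1 and 2. In each of the 4 genotypes both libraries of replicates 3 and 4 stood above both of replicates 1 and 2, for each of these genes. How many of all genes tested have such an order was not counted, here or for the sets of replicates below. Replicate number held 78.3% of the variation of MCTP14 and 68.4% of that of MCTP7, while genotype held 4.93 and 5.93%.

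MCTP9 followed another pattern, with replicates 2 and 4 above replicates 1 and 3, and the means of MCTP8 had the same order. MCTP9 averaged 11.3 ± 0.594 FPKM in the 8 libraries of replicates 2 and 4 and 9.08 ± 0.756 in those of replicates 1 and 3, and this order held in 4 of 4 genotypes. MCTP8 was at 2.27, 2.26, 1.23 and 2.95 FPKM in double, at 1.85, 3.37, 2.33 and 2.30 in mctp4-1, at 1.36, 2.90, 1.89 and 3.45 in mctp3-2 and at 1.72, 2.65, 1.61 and 2.80 in WT. It averaged 2.84 ± 0.437 and 1.78 ± 0.392 FPKM in the same sets, with both libraries above both in 2 of 4 genotypes. Replicate number held 75.6% of the variation of MCTP9 and 64.6% of that of MCTP8. Over the 16 libraries these 2 genes had the highest correlation of any pair of members, r = 0.88, given as a description. These sets of replicates were chosen after the values were seen, and no test is given. For comparison, over all genes tested the median share was 43.5% for replicate number and 11.3% for genotype, so 4 of the 9 members lay above the median for replicate number.

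**Figure D5:**
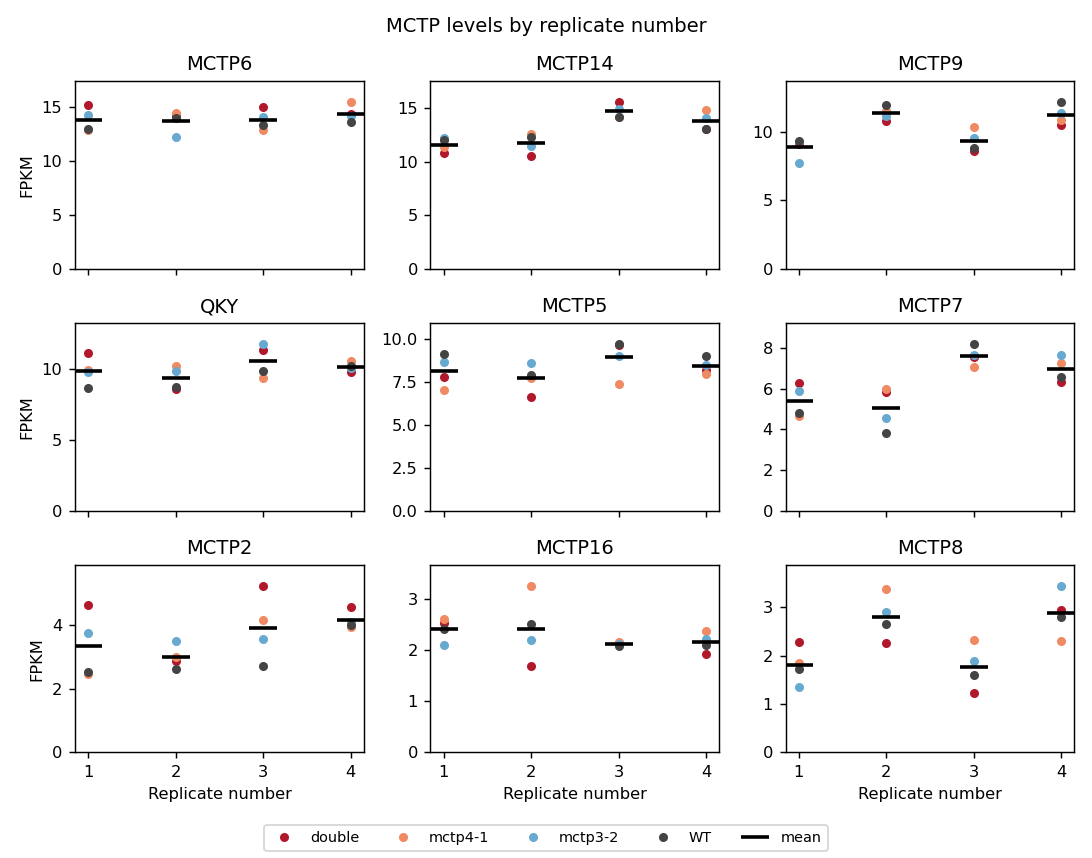
FPKM of each member by replicate number, with 1 point per genotype and the mean over genotypes as a black bar. MCTP14 and MCTP7 are higher in replicates 3 and 4 and MCTP9 in replicates 2 and 4 in 4 of 4 genotypes, and MCTP8 in replicates 2 and 4 in 2 of 4.

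MCTP2 and MCTP5 had the largest shares between genotypes, 36.1 and 40.2%. MCTP3 and MCTP4 had 94.1 and 98.0%.

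The tested genes whose log2 levels went most closely with each member over the 16 libraries are given as a description, and with their r. Same-numbered libraries share what the number marks. For MCTP14 the closest were MAP1C, a methionine aminopeptidase gene (r = 0.94), and ENGase85A (0.94). For MCTP7 they were CDPK19, a calcium-dependent protein kinase gene (0.94), and AT2G02160 (0.93). For MCTP9 they were BI1, a regulator of cell death (0.92), and AT3G05165 (0.91), and for MCTP8 the receptor-like kinase gene CRK26 (0.93) and the actin depolymerizing factor gene ADF8 (0.91). For QKY they were AT1G63610 (0.93) and AT4G17020 (0.87). For MCTP2 they were AT3G12100, annotated as a cation efflux gene (0.90), and the receptor kinase gene AT5G14210 (0.89). For MCTP6 they were AT3G23060 (0.87), a low gene with a mean of 0.877 FPKM, and AGAL2 (0.83). For MCTP5 they were the plastid division gene ARC6 (0.82) and the syntaxin gene SYP41 (0.80), and for MCTP16 AT1G65484 (0.79) and XTH28 (0.78). These genes were picked as the highest among 19239, and 16 libraries are few for such a search.

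Other genes of plasmodesmata and of contacts between endoplasmic reticulum and plasma membrane were not called either. Of 26 listed genes 25 passed the filter, and 0 were called in double, mctp4-1 or mctp3-2 against WT. Of all genes tested 0.156, 0.026 and 0.0312% were called in these comparisons, so 0 of 25 is near the background. In double 17 of 25 (68%) were above 0, against 59.9% of all genes tested, and the median of the 25 log2 changes was 0.04, against 0.03 over all genes. The largest sizes were CALS1, a callose synthase gene (0.33 ± 0.37 SE), PDCB3, which encodes a callose-binding protein of plasmodesmata (0.31 ± 0.20 SE), and NET3C, an actin-linked protein of membrane contact sites (0.25 ± 0.18 SE). The tethers SYT1 and VAP27-1 were at 0.06 ± 0.14 SE and 0.02 ± 0.08 SE.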

How the data were processed

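The authors deposited 1 matrix of FPKM, with 1 column per library, for roots of 4 genotypes. HISAT2, Cufflinks and the TAIR10 build are named in the submitters' processing notes. The sources used here do not state their versions, settings or use of strand. Per the labels' protocols, libraries came from polyadenylated RNA with a stranded kit. FPKM already divide out transcript length and library size, keep no depth, and move together if a few genes take a larger part of a library. The 16 columns were matched to samples by name, and 0 were left over. FPKM below 1e-06 were taken as 0.

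Genes with at least 1 FPKM in at least 4 libraries were tested, 19239 in all, with limma 3.58.1 in R 4.3.3 on log2(FPKM + 1): 1 mean per genotype over 16 libraries, mean-variance trend, robust moderation, 2-sided tests, Benjamini-Hochberg adjustment over all genes. Because of the +1, changes of low genes are understated. The fit was tested on simulated data. With genotype means subtracted, the 24 pairs of same-numbered libraries from different genotypes correlated at 0.203 to 0.556, so the number was also used as a block; pairs with different numbers ran from −0.518 to 0.524. The pairing rests on the shared numbers and the values, the labels being silent on its meaning.

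Proteins were translated from TAIR10.1 with its annotation and aligned with MAFFT 7.526; no coordinates were converted. The members, gene lists and tests were chosen with earlier results of these data known. Named are the members, MCTP3 and MCTP4, the other family genes, the 2 genes most correlated with each member, and, of the plasmodesmal list, called genes and the 3 of largest change; SUB, SYT1 and VAP27-1 are further examples chosen after their values were seen. Alternatives covered the pseudocount, filters, scaling, moderation, the groups fitted, the block, replicate pairs and each library left out.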

Additional observations from a re-analysis of the deposited data

Results flagged for a closer look

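Of 40 sets of 4 libraries examined, 9 members and their sum in 4 genotypes, 3 held a library far from the others, where chance gives about 1 in 20. MCTP2 in WT replicate 4 was at 3.99 FPKM, where the other WT libraries were at 2.52 to 2.71. MCTP6 in mctp3-2 replicate 2 was at 12.2 FPKM, where the others were at 14.1 to 14.3. QKY in mctp3-2 replicate 3 was at 11.8 FPKM, where the others were at 9.79 to 10.08. Without WT replicate 4 the log2 change of MCTP2 in double was 0.53, with an adjusted p of 0.776 by limma.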

How the results depend on the processing

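No member was called under any of the 26 alternatives, in any of the 6 comparisons: all 155 counts were 0 of 9, the 0 of 9 with the replicate block among them. The interaction was not fitted with only the genotypes of the comparison, since it uses all of them. Of 1395 values of members under alternatives, 1301 lay on the same side of 0 as the reported value, and the others belong to values that were not called. The lowest adjusted p of any was 0.303, for MCTP2 in double against WT with the replicate block, where the range over alternatives was 0.303 to 1. The log2 change of MCTP2 in double ran from 0.33 without double replicate 3 to 0.56 without double replicate 2, and was 0.52 with a pseudocount of 0.1. The number of all genes called in double against WT was 30, 104 with the replicate block and 14 with only both genotypes in the fit. It was 19 without WT replicate 1 or WT replicate 2, 16 without double replicate 3 and 20 to 28 without any other single library. Because read counts are unknown, the lowest members, MCTP8 and MCTP16, carry an unknown counting error. What change could be seen is limited by the spread between libraries of a genotype, pooled over all 16 libraries in the fit.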

Other observations

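FTIP1 (AT5G06850), outside the 9 members and the nearest relative of MCTP2, was at 9.35, 8.11, 12.2 and 9.89 FPKM in replicates 1 to 4 of double, at 7.30, 8.05, 7.93 and 10.09 in mctp4-1, at 9.64, 7.46, 9.77 and 10.3 in mctp3-2 and at 7.41, 6.81, 8.98 and 9.53 in WT. Its log2 change in double was 0.24 ± 0.14 SE, it was higher than WT for 4 of 4 replicate numbers in double and in mctp3-2, and it was called in neither (adjusted p = 1.00 by limma, and 0.481 in double with the replicate block). Over the 16 libraries the log2 levels of FTIP1 and MCTP2 correlated at r = 0.78, and those of FTIP1 and MCTP7 at r = 0.79, given as a description.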
